A study of Mus musculus with 2 samples.

Results

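The proteasome subunit genes are the 50 protein-coding genes of the mouse annotation whose symbols begin with Psm, a letter from a to g and a number, out of 22028 protein-coding and 55536 annotated genes. They were measured by long-read RNA sequencing, in which 1 read is the sequence of 1 cDNA molecule and shows the order of its exons. The tissue, labelled layer of hippocampus, came from female B6CASTF1/J mice (a cross of C57BL/6J and CAST/EiJ) aged 14 days. There was 1 group, with no treatment or second condition, and 2 biological replicates, called library 1 and library 2 here, each a pool of 3 animals from 2 µg of RNA. The labels give different animals for each pool in one field and repeat the animals of library 1 in another.

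The 26S proteasome is the ATP-driven protease that degrades proteins tagged with ubiquitin. Its 20S core is a barrel of alpha and beta rings, and the beta rings hold the catalytic sites. A 19S regulatory particle caps the barrel, binds ubiquitin chains, removes them, and unfolds the substrate with a ring of ATPases. In cells stimulated with interferon gamma, 3 other beta subunits can replace the catalytic ones to form the immunoproteasome. In neurons, proteasome activity is known to take part in the turnover of synaptic proteins.

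The libraries held 1168366 and 888704 reads, so 1 read was 0.856 and 1.13 CPM (a gene's reads divided by all reads of its library, times 1000000). The proteasome genes took 7703 and 4978 reads, which was 0.659% and 0.560% of all reads. All 9 hippocampal markers examined, among them Slc17a7, Nrgn and Prox1, were read in both libraries. By the exact binomial test given below, 2 of the 9 were called higher in library 1 and 4 in library 2. Over all genes tested, these shares were 5.03% and 5.81%. Prox1 had 6.85 and 38.3 CPM, and Pcp4, called the other way, had 316 and 227 CPM. With the length trend given below removed, 0 of the 9 were called higher in library 1. In library 2, 2 were called higher, Prox1 and C1ql2, and Pcp4 was no longer called. The shares over all genes were then 1.43% and 1.28%. The 5 choroid plexus markers summed to 4638 CPM in library 1 and 5.63 CPM in library 2, where every one of them except Ttr was at 0. The 6 astrocyte markers summed to 2995 and 4766 CPM. Tissue RNA cannot tell fewer cells of a type from less RNA per cell.

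Of the 50 genes, 47 had reads and 45 had the 10 reads over both libraries needed for a test. Psma8, the alpha subunit of germ cells, Psmb11, the beta subunit of the thymus, and Psme2b had 0 reads in both libraries, where 3 reads would be 2.57 and 3.38 CPM. Psmb9 and Psme4 were read but fell under the minimum. Psmc3ip matched by its symbol only: it is a recombination cofactor, not a part of the proteasome, with 6.85 and 4.50 CPM. Levels below are in CPM, a share of reads, and are not divided by length. The ratio between the libraries moved with model length (given with their comparison), so levels of genes that differ in length compare reads and not molecules. Mean ± SD is over the 2 libraries (n = 2).

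The 7 alpha ring genes, whose products form the outer rings and the gate of the barrel, were all read, with a median level of 193 CPM in library 1 and 129 CPM in library 2. Psma7 was the highest, at 384 and 255 CPM (320 ± 91.1, SD, n = 2), and Psma4 the lowest, at 91.6 and 72.0 CPM. Each alpha ring holds 1 copy of each of the 7 subunits, and the reads differed 4.20-fold and 3.55-fold between the highest and lowest gene. The order between them was Psma3 at 306 and 217 CPM, Psma2 at 199 and 147, Psma5 at 193 and 129, Psma6 at 165 and 126, and Psma1 at 130 and 99.02. Psma2 lay above Psma5 in both libraries, by less than either gene differed between the libraries. The order of these genes was not tested. Counting only reads with the complete chain of coding introns, Psma3 had 214 and 126 reads and Psma2 had 226 and 122.

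The 7 constitutive beta ring genes had a median level of 208 and 146 CPM. Psmb1, a structural subunit, was the highest at 323 and 216 CPM (269 ± 75.4), and Psmb4, also structural, was the lowest by mean at 85.6 and 59.6 CPM. The 3 catalytic subunits differed from one another. Psmb6, the beta1 site that cuts after acidic residues, had 264 and 165 CPM, and Psmb5, the beta5 site with chymotrypsin-like activity, had 252 and 161 CPM. Psmb7, the beta2 site with trypsin-like activity, had 83.0 and 68.6 CPM, below both other catalytic genes in both libraries. Psmb2 had 208 and 146 CPM and Psmb3 had 148 and 83.3 CPM. Within the beta ring the highest gene was 3.89-fold and 3.62-fold over the lowest.

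The immunoproteasome genes were uneven. Psmb10, the beta2 replacement, had 67 and 31 reads, or 57.3 and 34.9 CPM. Psmb8, the beta5 replacement, had 9 and 5 reads, and Psmb9, the beta1 replacement, had 0 and 2 reads. Of the reads of each catalytic pair, Psmb10 took 40.9% of Psmb10 plus Psmb7 in library 1 (67 of 164 reads, 95% Clopper-Pearson interval 33.3 to 48.8%) and 33.7% in library 2 (31 of 92, 24.2 to 44.3%). Psmb8 took 2.96% (9 of 304, 1.36 to 5.55%) and 3.38% (5 of 148, 1.11 to 7.71%) of its pair. Psmb9 took 0 of 308 reads, whose Clopper-Pearson upper bound is 1.19% (3 reads would be 0.974%), and 2 of 149 (1.34%, 0.163 to 4.76%). The intervals of the Psmb10 share lay above those of both other pairs in each library. They cover counting error only.

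**Figure D1:**
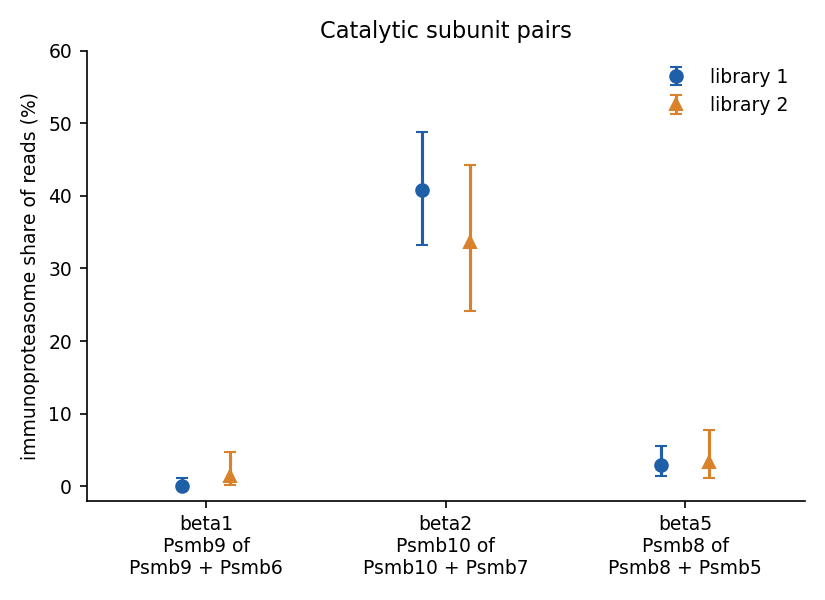
Share of reads from the immunoproteasome gene in each catalytic pair (y axis, percent), for the beta1, beta2 and beta5 sites (x axis), with 95% Clopper-Pearson intervals. Circles are library 1 and triangles library 2; Psmb10 sits at 40.9% and 33.7%, while Psmb8 and Psmb9 stay under 4%.

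Psmb10 (chr8:105935735-105938444, minus strand, mm10) also differed in the form of its reads. Only 32 of 67 and 18 of 31 reads held every intron of its coding sequence, and its leading transcript Psmb10-201 took 47.8% and 58.1%. The second form, a 7-exon model matching only part of an annotated transcript, took 15 and 7 reads. Intron 1 was kept in 16 of 48 informative reads (33.3%, 20.4 to 48.4%) and 7 of 25 (28.0%, 12.1 to 49.4%). Counting only reads with the complete chain of coding introns, Psmb10 took 27.8% (32 of 115, 19.9 to 37.0%) and 24.0% (18 of 75, 14.9 to 35.3%) of its pair. Both shares were lower than those over all reads and still above the corresponding ones of Psmb8, 2.37% and 2.80%. Psmb9 overlaps Tap1 on the other strand, to which 20 and 10 reads on its exons were assigned.

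Markers of T and B cells, which are known for high immunoproteasome levels, were at or near 0. Cd3e, Cd3d and Cd8a, of T cells, had 0 reads, and Cd79a, of B cells, and Ptprc, of leukocytes, had 2 reads each, in library 2 alone. All 8 microglial markers were read, with sums of 594 and 770 CPM, and all 6 endothelial and mural markers, with sums of 464 and 529 CPM. The part of these cells in the Psmb10 and Psmb8 reads was not tested. Of the 8 genes of class I antigen presentation, the process that immunoproteasome peptides feed, 7 were read, 6 were tested between the libraries and 0 were called (exact binomial, adjusted p of 0.05 or less), where 10.8% of all genes tested were. The highest were Tapbp, the tapasin loading factor, at 31.7 and 48.4 CPM, B2m, the light chain of class I molecules, at 47.1 and 31.5, and Tap1, a subunit of the peptide transporter, at 18.8 and 12.4. Nlrc5, an activator of class I genes, had 0 reads.

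The 6 ATPases of the 19S base, Psmc1 to Psmc6, form a ring with 1 copy of each. Their median level was 246 and 219 CPM (233 ± 19.1), and the highest gene was 2.69-fold and 3.33-fold over the lowest. Psmc3 had 290 and 293 CPM, Psmc1 had 275 and 279, and Psmc5 had 270 and 250. Psmc4 had 223 and 189 CPM, Psmc2 had 153 and 137, and Psmc6 was the lowest at 108 and 87.8. The levels of Psmc3 and Psmc1 differed between the libraries by less than 5 CPM each.

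The 11 non-ATPase subunits had a median level of 145 and 167 CPM. Psmd2, a large scaffold of the base that docks ubiquitin receptors, was at 363 and 483 CPM (423 ± 84.7), the highest mean of all 50 genes, although Psma7 was higher in library 1. Psmd11, a lid scaffold, was the lowest of this group at 87.3 and 81.0 CPM. Psmd1, the other large base scaffold, had 145 and 173 CPM, well under Psmd2 in both libraries. The ubiquitin receptor Psmd4 had 190 and 198 CPM. Psmd14, the deubiquitinase of the lid, had 111 and 116 CPM, and its partner Psmd7 had 232 and 203.7. The other lid genes were Psmd8 at 229 and 182, Psmd12 at 181 and 167, Psmd6 at 134 and 141, Psmd13 at 138 and 133, and Psmd3 at 121 and 127 CPM. These last 3 lay within 20 CPM of one another in each library. The 19S subunits with other symbols are Adrm1 and Sem1. Adrm1, a ubiquitin receptor, had 146 and 174 CPM, and Sem1, a small lid subunit, had 153 and 70.9 CPM.

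Taken as medians over genes, the 14 core genes stood at 196 and 138 CPM and the 17 regulatory particle genes of the symbol rule at 181 and 173 CPM. Adrm1 and Sem1, which lie outside the rule, are not among the 17, and no ratio was taken with them. The ratio of the core to the regulatory median was 1.08 in library 1 and 0.795 in library 2 (0.939 ± 0.203), so its side of 1 differed between the libraries. With the ATPases alone as the regulatory group, it was 0.797 and 0.628, under 1 in both. The median model length was 1153 nt for the core genes and 1582 nt for the regulatory particle genes, and its part in these ratios was not tested.

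The 4 dedicated 20S chaperones Psmg1 to Psmg4, which pair alpha subunits during core assembly, had 4 to 33 reads per library and medians of 21.8 and 11.8 CPM. Psmg4 had 28.2 and 14.6 CPM, Psmg2 had 24.8 and 14.6, Psmg1 had 18.8 and 9.002, and Psmg3 had 16.3 and 4.50. Pomp, the maturation factor of the core, had 183 and 136 CPM. The 3 base chaperones were Psmd5 at 89.9 and 99.02, Psmd9 at 47.1 and 32.6, and Psmd10 at 29.96 and 18.0 CPM. Of the activators, the PA28 alpha and beta subunits Psme1 and Psme2 had 38.5 and 40.2 CPM in library 1 and 24.8 CPM each in library 2. Psme3, the nuclear PA28 gamma, had 47.1 and 65.3 CPM, and Psme4, the large activator PA200, had 5 and 4 reads. Psmf1, a proteasome inhibitor, had 53.1 and 56.3 CPM.

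**Figure D2:**
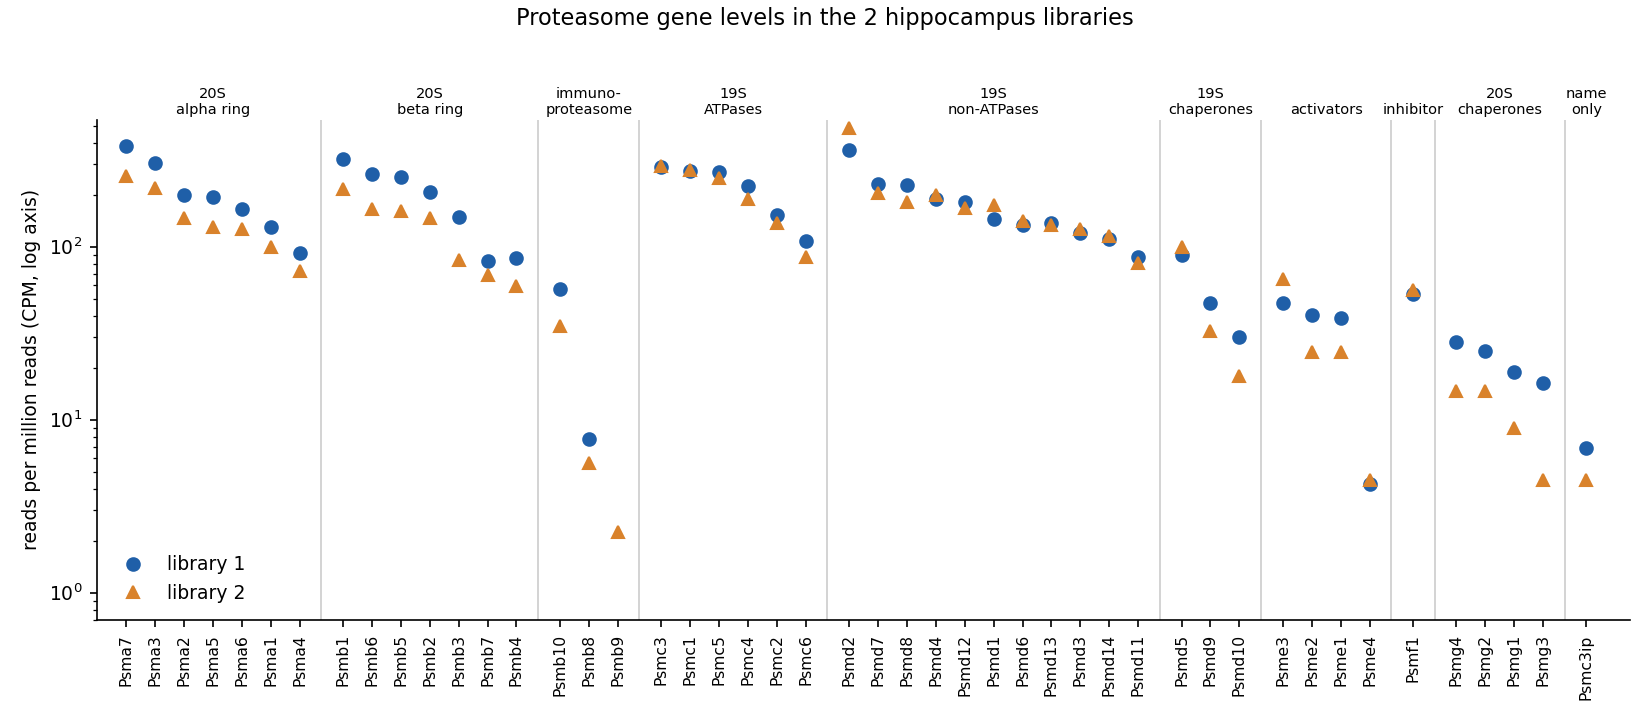
Level of each of the 47 proteasome genes with reads (y axis, CPM on a log axis), grouped by role along the x axis and ordered by mean. Circles are library 1 and triangles library 2; the 14 ring genes lie lower in library 2, as do 9 of the 17 19S genes, and Psmd2 is higher there. Psmb9 in library 1 had 0 reads and is not drawn.

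Since there was 1 group, the libraries were compared with each other gene by gene: each gene's split of reads was set against the split of the library totals (exact binomial, two-sided), with Benjamini-Hochberg adjustment over all 11681 annotated genes with enough reads. It tests these libraries and not a condition, and the reads are not replicates. Of all genes tested, 1266 were called at an adjusted p of 0.05 or less (10.8%), 587 higher in library 1 (5.03%) and 679 higher in library 2 (5.81%). Of the 45 proteasome genes tested, 9 were called. All 14 ring genes were lower in library 2, and the 8 genes called higher in library 1 were all among them: Psma3, Psma5, Psma7, Psmb1, Psmb2, Psmb3, Psmb5 and Psmb6. Psmd2 was the one gene called higher in library 2. In all, 34 of 45 genes were lower in library 2, with a median log2 ratio (library 2 over library 1, 1 CPM added to each) of -0.39, against 0.11 over all genes tested. Scaling by TMM or by DESeq2 size factors shifted the median of all genes by -0.12 and -0.11. With either, 41 of 45 genes and all 14 ring genes were lower in library 2, 11 were called higher in library 1, and Psmd2 was still called higher in library 2. Of all genes tested, 6.78% (TMM) and 6.73% (DESeq2) were then called higher in library 1, and 2.96% and 3.07% in library 2.

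Psma7 (chr2:180036374-180042433, minus strand) had 449 and 227 reads and a log2 ratio of -0.59 (exact binomial, adjusted p = 1.82e-05). Psmb6 (chr11:70525367-70527858) had 308 and 147 reads and a log2 ratio of -0.67 (exact binomial, adjusted p = 9.38e-05). Psmb3 (chr11:97703399-97713500), with 173 and 74 reads, had the lowest log2 ratio of the called genes at -0.82 (exact binomial, adjusted p = 0.000656). Psmd2 (chr16:20651652-20663414), with 424 and 429 reads in libraries of unequal size, had a log2 ratio of 0.41 (exact binomial, adjusted p = 0.000887). None of the 4 Psmg genes was called, although all were lower in library 2. Psmg3 fell from 19 to 4 reads (log2 ratio -1.65, exact binomial, adjusted p = 0.118).

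The direction moved with transcript length. The mean model lengths of the called ring genes ran from 757 nt for Psmb3 to 2243 nt for Psma3, and that of Psmd2 was 2823 nt. Across the 45 genes, Spearman's rho between the mean length of a gene's models and its log2 ratio was 0.74, and 0.42 across all genes tested. These are correlations across genes, which share both libraries and are not replicates. With the trend of the log2 ratio with model length removed over all genes, 2.71% of genes were called, 1.43% higher in library 1 and 1.28% higher in library 2. Of the proteasome genes, 3 were then called, all higher in library 1, and Psmd2 was not (exact binomial, adjusted p = 0.633). Those 3 were Psmb1 and Psma3, called without it as well, and Psma2. Their detrended log2 ratios were -0.54, -0.65 and -0.69, and the median over the proteasome genes moved to -0.10.

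Model length holds the annotated untranslated regions, since the deposited models of annotated transcripts carry the annotated ends. With coding length in place of model length, 7 proteasome genes were called higher in library 1 and 0 in library 2, among protein-coding genes. The median over the proteasome genes was then -0.36. The 7 were all among the 8 called without a trend, Psmb2 being the one left out. Their background was 2.5% of genes, and 3.18% were called higher in library 2. The calls thus differed with the measure of length. Read lengths were not used here. The part of the choroid plexus, astrocyte and hippocampal marker differences given above in these ratios was not tested.

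**Figure D3:**
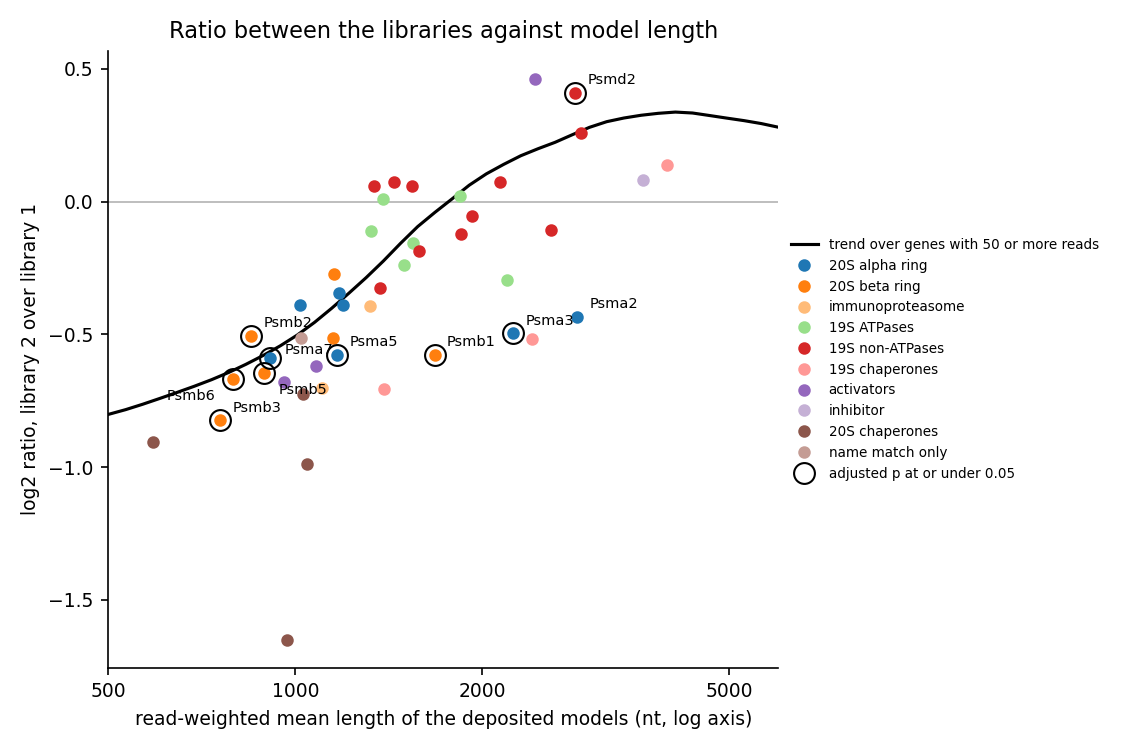
Log2 ratio of library 2 over library 1 (y axis) against the read-weighted mean length of a gene's models in nt (x axis, log scale) for the 45 genes tested, coloured by role. The black line is the trend over all genes with 50 or more reads and open rings mark the 9 called genes; Psma2, Psma3 and Psmb1 lie below the line by 0.69, 0.65 and 0.54.

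Among the genes outside the symbol rule, Sem1 was called higher in library 1, with 179 and 63 reads (log2 ratio -1.10, exact binomial, adjusted p = 2.48e-06), and it stayed so with the length trend removed. Adrm1 was not called. Of 16 assembly, shuttle and associated genes, 0 were called by this test, which called 10.8% of all genes tested. The 4 highest were Vcp, the segregase that extracts ubiquitinated proteins, at 309 and 362 CPM, Zfand5, a proteasome-binding zinc finger protein, at 197 and 218, Usp14, a deubiquitinase of the 19S, at 181 and 182, and Pomp. Txnl1, a thioredoxin bound to the 19S, was called higher in library 1 with the length trend removed (104 and 77.6 CPM). Of 4 genes for the transcription of proteasome genes 0 were called, beside the same 10.8%. They were led by Nfe2l1, the transcription factor of the bounce-back response, at 135 and 182 CPM. The other 3 were Ngly1, which processes that factor, at 41.1 and 48.4, Nfe2l2 at 18.8 and 23.6, and Nfya at 4.28 and 6.75 CPM.

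Most reads of the proteasome genes matched annotated transcripts. In the deposited classes, 84.1% and 83.3% of their reads were annotated, against 72.0% and 71.7% over all protein-coding genes. Incomplete splice matches, whose junctions are a consecutive part of an annotated chain, made up 10.2% and 9.36%, against 10.9% and 10.7%. This class also held some models of 1 exon, which have no junction. New combinations of annotated splice sites made up 1.90% and 3.01%, against 5.67% and 6.98%. Models with an unannotated splice site made up 2.34% and 2.79%, against 3.70% and 4.10%. Genomic models, mostly of 1 exon, made up 1.48% and 1.53%, against 7.76% and 6.54%. The proteasome genes thus had a lower share of both unannotated spliced classes and of the genomic class in each library, by margins wider than the gap between the libraries for that class. A median of 88.6% of a gene's reads held the complete chain of coding introns of 1 reference transcript, and 36 of the 45 genes tested reached 75%. Other coding forms do not count here, so Psmd4 stood at 54.5% and Psmd10 at 72.5%.

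**Figure D4:**
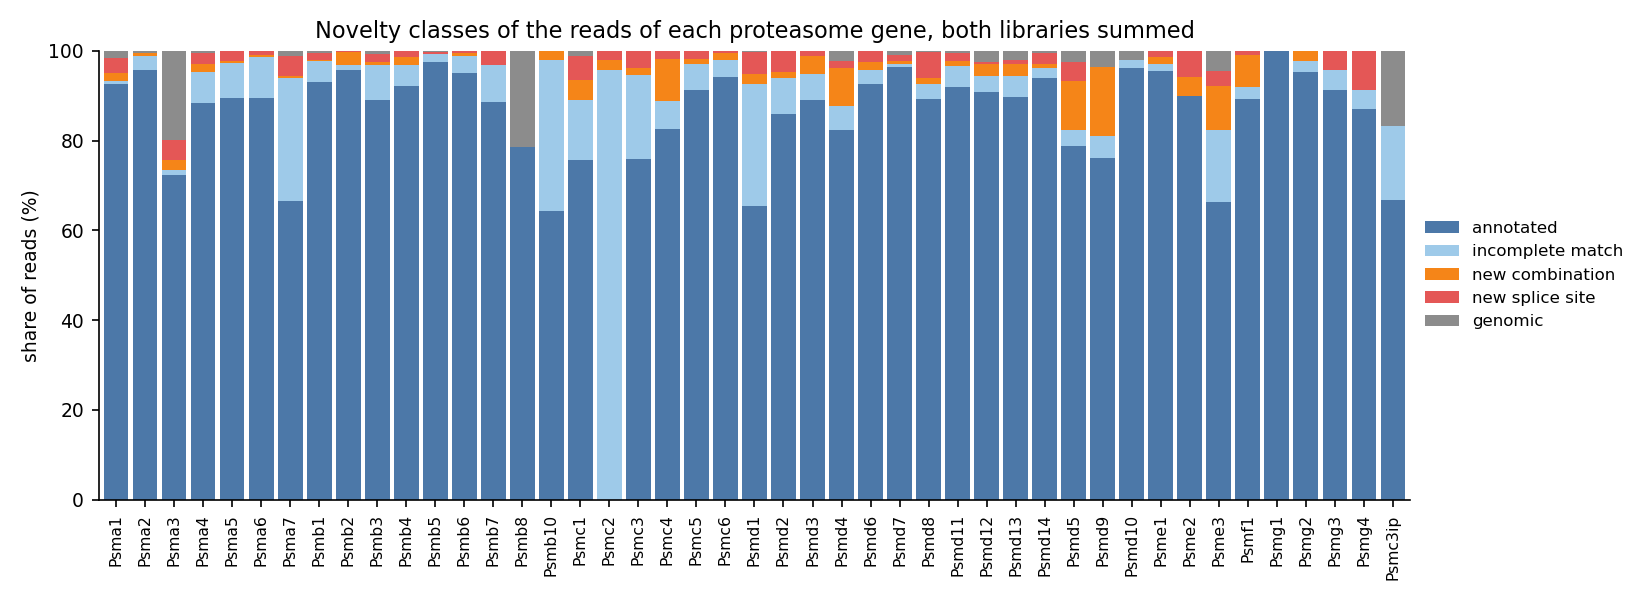
Share of reads in each deposited novelty class (y axis, percent, both libraries summed) for the 45 proteasome genes with 10 or more reads (x axis). Blue marks annotated transcripts; Psmc2 is 95.7% incomplete match, Psma3 has 19.8% genomic reads and Psmd9 15.5% new combinations.

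In 37 of the 45 genes tested, the leading form over both libraries was the transcript numbered 201 in the annotation. It was number 202 for Psma3, Psmc3, Psmd4, Psmd8 and Psmg4, number 208 for Psme1 and Psme2, and a partial model for Psmc2. The leading form took a median of 87.0% of a gene's reads, and 100% for Psmg1. Of all genes with 20 reads in each library, 1.06% had a leading share that differed by Fisher's exact test with Benjamini-Hochberg adjustment. Of the 38 proteasome genes tested, 0 were called, and 3 had an unadjusted p under 0.05: Psma1, Psmb3 and Psmd9. Their adjusted p by Fisher's exact test were 0.475, 0.343 and 0.497. No share of all genes at that unadjusted p is given, so these 3 are not read as differing. Psma1-201 took 90.8% and 80.7%, Psmb3-201 took 87.3% and 74.3%, and Psmd9-201 took 83.6% and 62.1% of the reads of its gene.

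Psmd4 had 2 coding forms with large shares of its reads. It encodes the ubiquitin receptor with its ubiquitin-interacting motifs, and a choice of donor site at the end of exon 7 adds 9 nt, chr3:95033909-95033917 on the minus strand, to the coding sequence. Psmd4-202, with the shorter exon, took 55.0% and 54.0% of the reads, and Psmd4-201, with the longer one, took 26.6% and 29.5%. Over all reads with either junction, the longer exon was in 65 of 211 (30.8%, 24.6 to 37.5%) and 60 of 171 (35.1%, 28.0 to 42.7%), so the intervals overlapped. The end of exon 7 and the first bases of exon 8 are shown for both forms, with the added bases in capitals. All sequences below are of the GENCODE M21 transcripts, 5′ to 3′.
Psmd4-201: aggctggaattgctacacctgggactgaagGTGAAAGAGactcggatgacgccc
Psmd4-202: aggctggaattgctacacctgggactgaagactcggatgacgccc
The added bases begin with GT, the usual first bases of an intron, which the shorter form removes with the intron. In 2 genes with fewer reads, another form annotated as coding had a like share. Psmg4-201 took 8 and 5 reads (24.2% and 38.5%), and Psmd10-202 took 9 and 3 (25.7% and 18.8%).

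Skipping of an internal exon was found, with at least 5 reads over both libraries, in 8 genes. The exon is shown for the 5 genes in which more than 5 reads skipped the same single exon, a limit chosen after the values were seen. It is in capitals between the 15 bases on each side that skipping joins.
Psmd5-201 exon 2: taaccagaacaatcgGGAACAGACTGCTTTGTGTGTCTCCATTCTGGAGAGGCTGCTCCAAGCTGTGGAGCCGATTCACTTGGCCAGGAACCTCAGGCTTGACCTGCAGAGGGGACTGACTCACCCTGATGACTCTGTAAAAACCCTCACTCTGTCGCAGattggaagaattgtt
Psmd9-201 exon 2: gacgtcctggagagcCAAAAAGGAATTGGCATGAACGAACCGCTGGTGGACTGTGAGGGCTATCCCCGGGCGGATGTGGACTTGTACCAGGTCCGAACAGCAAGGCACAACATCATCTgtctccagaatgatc
Psmb2-201 exon 2: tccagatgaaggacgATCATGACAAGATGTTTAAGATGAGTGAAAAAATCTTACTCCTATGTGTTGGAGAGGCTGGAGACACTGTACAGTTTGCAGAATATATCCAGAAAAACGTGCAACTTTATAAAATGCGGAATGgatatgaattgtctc
Psme3-201 exon 4: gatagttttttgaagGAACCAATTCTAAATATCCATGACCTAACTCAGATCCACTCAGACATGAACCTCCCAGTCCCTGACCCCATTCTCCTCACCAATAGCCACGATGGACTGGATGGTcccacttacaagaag
Psmg4-202 exon 2: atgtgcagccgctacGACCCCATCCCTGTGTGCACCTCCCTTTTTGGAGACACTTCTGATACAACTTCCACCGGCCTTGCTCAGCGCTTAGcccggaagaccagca
The exons of Psmd5 (145 nt, chr2:34866893-34867037), Psmd9 (103 nt, chr5:123234594-123234696) and Psmg4 (76 nt, chr13:34166061-34166136) are not multiples of 3, so skipping shifts the reading frame. Those of Psmb2 (123 nt, chr4:126684122-126684244) and Psme3 (105 nt, chr11:101317623-101317727) are multiples of 3.

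Psmd5, a chaperone of the base, lacked exon 2 in 7 of 94 reads (7.45%, 3.05 to 14.7%) and 17 of 87 (19.5%, 11.8 to 29.4%). Psmd9, another, lacked it in 5 of 51 (9.80%, 3.26 to 21.4%) and 8 of 29 (27.6%, 12.7 to 47.2%). Psmg4 lacked exon 2 in 8 of 30 and 5 of 10 reads, a form annotated as Psmg4-201. Psme3 lacked exon 4 in 4 of 44 and 3 of 42 reads, and Psmb2 lacked exon 2 in 9 of 240 and 1 of 127. In every one of these genes the intervals of the 2 libraries overlapped. The other 3 genes had 5 reads each: Psma3 lacked exon 7 in 4 of 279 and 1 of 151 reads, Psmd2 lacked exon 16 in 4 of 393 and 1 of 415, and Psmf1 lacked exon 3 in 1 of 52 and 4 of 43. Psmf1 also lacked exons 2 and 3 together in 9 of 59 (15.3%, 7.22 to 27.0%) and 5 of 44 reads (11.4%, 3.79 to 24.6%).

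The proteasome genes held 186 and 178 unannotated spliced chains, of which 62 were shared, with 57.7% and 52.6% of these reads. Of the chains, 73.7% and 77.0% had 1 read, which limits how many could be shared. No share over all genes stands beside these counts, so they are not read as particular to proteasome genes. Of the shared chains, 6 had at least 5 reads in each library. The exon 2 skips were such chains in Psmd5 (5 and 11 reads) and Psmd9 (5 and 8). A Psmc4 chain that keeps intron 8 had 11 and 15 reads. A Psmc1 chain with an annotated donor 292 nt further into intron 1 had 8 and 10 reads, and a Psma7 chain with an unannotated donor 290 nt further into intron 1 had 16 and 5. Both of these leave every later junction as annotated.

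The sixth was in Psmd8, a lid subunit, where exon 1 was joined to a site inside exon 4 in 16 of 255 reads (6.27%, 3.63 to 9.99%) and 8 of 155 (5.16%, 2.25 to 9.92%). It leaves out exons 2 and 3 and the first 34 nt of exon 4 (chr7:29177198-29177231, minus strand), 210 nt in all, which is 70 codons and keeps the frame. The left-out start of exon 4 is in capitals, after the last bases of exon 1.
Psmd8-202 exon 1 end: aaatgtggagaagaactgggccgcctgaag
Psmd8-202 exon 4 start: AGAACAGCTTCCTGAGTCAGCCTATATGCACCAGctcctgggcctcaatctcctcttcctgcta
The left-out bases end in AG, the usual last bases of an intron, and share only their last 2 bases with the end of exon 1.

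**Figure D5:**
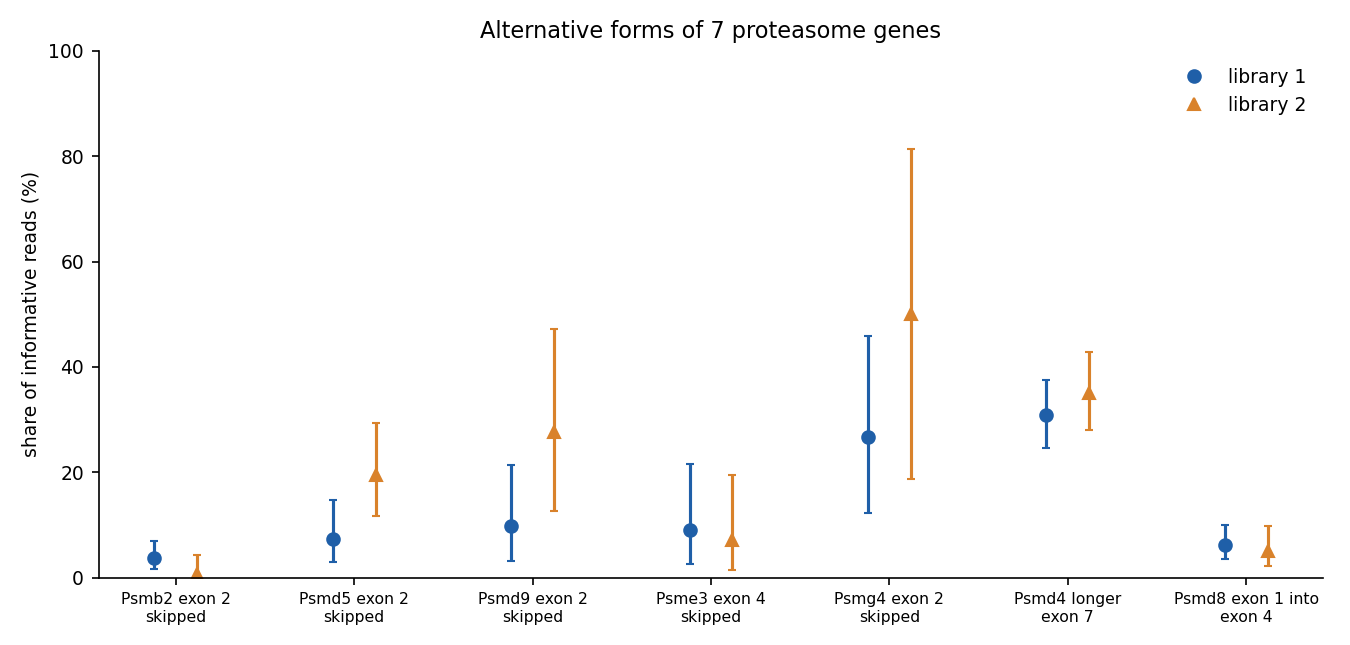
Share of informative reads (y axis, percent) with the named form in 7 proteasome genes (x axis), with 95% Clopper-Pearson intervals. Circles are library 1 and triangles library 2; the intervals of the libraries overlap for every form, and the longer exon 7 of Psmd4 is at 30.8% and 35.1%.

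The share of incomplete matches differed between genes, and no such spread over all genes is given beside it. Over both libraries they made up 95.7% of the reads of Psmc2, 33.7% of Psmb10, 27.5% of Psma7 and 27.2% of Psmd1. Lower shares were 18.7% for Psmc3, 15.9% for Psme3 and 13.4% for Psmc1. In Psmd1, a 22-exon incomplete match took 37 and 25 reads (21.9% and 16.2%). Psmc2 had no read on an annotated full transcript: 0 of 177 and 0 of 120 informative reads joined exon 1 to exon 2, which allows up to 1.69% and 2.5% (the share of 3 reads). Its leading form, with 94.97% and 94.26% of reads, was a 12-exon model that starts at the first base of exon 2 (chr5:21786650) and holds every coding intron. The annotated start codon lies in exon 2, at chr5:21786689. RefSeq (GRCm38.p6) lists 2 starts for Psmc2, chr5:21785275, near exon 1, and chr5:21786747, inside exon 2 and 58 nt past that codon. Deposited models end at annotated exon ends, so they do not show where in exon 2 the reads began.

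Psma7 had reads that joined exon 4 to exon 5 without an exon 3 to exon 4 junction, in 125 of 437 (28.6%, 24.4 to 33.1%) and 49 of 220 (22.3%, 17.0 to 28.4%). Most were of a 4-exon incomplete match (123 and 49 reads) that holds no exon before exon 4. Psmc3 had 75 and 26 reads in 1-exon models, 22.1% and 10.0% of its reads.

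Some reads followed transcripts not annotated as coding, kept an intron or lacked the complete chain of coding introns. Psmb6-202, annotated as a retained intron, took 46 and 23 reads, 14.9% and 15.6% of Psmb6. Psma3-201, annotated as a target of nonsense-mediated decay, took 26 and 7 reads, and 1-exon genomic models took 70 and 39 reads of Psma3. Psmc5-202 and Psmf1-206, with the same annotation, took 7 and 6 and 8 and 4 reads. Intron 8 of Psmc4 was kept in 22 of 261 (8.43%) and 20 of 168 reads (11.9%). Intron 13 of Psmd11 was kept in 9 of 101 (8.91%) and 12 of 71 (16.9%). A form with it kept, Psmd11-214, is annotated as coding. In Psmd11, 92 and 68 reads held the complete chain of coding introns, against 83 and 57 reads of Psmd11-201 alone. Psme4, whose coding sequence is 5529 nt, had 0 of 9 reads with the complete chain of coding introns.

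Promoter sequences of 300 bases (250 before and 50 after the start) from RefSeq were found for 41 of the 49 genes other than Psmc3ip, 44 promoters in all, and searched on both strands. CCGGAAG, a core bound by ETS factors, was in 15 of 44 (34.1%), against 8.86% of all 32851 promoters and 17.1% of those of tested genes. TGACNNNGC, the core of the antioxidant response element that Nfe2l1 binds, was in 6 of 44 (13.6%), against 12.4% and 14.0%. CCAAT was in 14 of 44 (31.8%), against 37.4% and 37.7%. A match is a description of the letters and does not show binding.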

How the data were processed

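Total RNA of 2 hippocampus libraries was read by long-read sequencing. The authors deposited raw counts of reads for every transcript model, per the file headers. Reads were assigned to mm10 and GENCODE M21 models plus TALON models of each library, per the deposited annotation. The aligner was not given in the sources used here. From the deposited counts, reads were summed per gene, and CPM were taken over all reads. Models were matched between libraries by intron chain. Exact binomial and Fisher's exact tests were run on all genes and adjusted by Benjamini-Hochberg. They compare reads of these libraries, so the spread between animals is not covered. Lowess (fraction 0.3, genes with 50 or more reads) gave length trends. The tests were tested on simulated data. Members and lists were chosen with earlier results of these data known. Every member was to be named. Of a pathway list, called genes, the 4 highest and those at 0 were named, except some that are not reported here. The lists were 19S subunits with other names, assembly and shuttle, transcription, class I presentation, hippocampus, microglia, endothelial, choroid plexus, T and B cells, astrocyte, pan-neuronal and germ cell. The pan-neuronal markers summed to 3794 and 4394 CPM and the germ cell markers had 10 and 3 reads. Python 3.11.15, scipy 1.17.1, statsmodels 0.14.6, R 4.3.3, edgeR 4.0.16 (TMM) and DESeq2 1.42.0 (size factors) were used.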

Additional observations from a re-analysis of the deposited data

Results flagged for a closer look

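Reads of unannotated loci on the strand opposite to exons of 2 proteasome genes exceeded, in each library, the 3 reads that a count of 0 allows. They lay outside the gene comparisons. Loci antisense to Psmd2 had 4 reads in library 1 and 5 in library 2. Those antisense to Psmd11 had 16 and 4 reads.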

How the results depend on the processing

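Of the counts of called proteasome genes, 8 higher in library 1 and 1 in library 2, other scalings, read minimums and annotated transcripts alone gave 8 to 11 and 1. Over all genes, the shares called in these settings ran from 2.72% to 9.71% for library 1 and from 2.96% to 11.7% for library 2. The lowest for library 1 had no read minimum, and the highest for both required at least 50 reads. Removing the model length trend gave 3 and 0, against 1.43% and 1.28% of all genes. Removing the coding length trend, an alternative chosen after seeing the data, gave 7 and 0, against 2.5% and 3.18% of all genes. With the model length trend removed, the log2 ratio of Psmb2 turned from -0.50 to 0.10 and was no longer called. No alternative for the leading transcript gave a call. The 19S median of 177 CPM was 152 with annotated transcripts only. It was 202 over TMM-scaled totals. These hold the reads of tested genes only (1011431 and 795934 before scaling) and are smaller than the library totals. It was 233 with the ATPases alone. With those alone, an alternative added after seeing the data, the mean core to regulatory ratio was 0.713. The immunoproteasome sum of 53.9 CPM was 36.0 with annotated transcripts only. With models of at least 2 reads only, the annotated share was 87.1% and the incomplete matches 8.68%. With 1 library left out, the core median ran from 138 to 196 CPM, the 19S median from 173 to 181 and the immunoproteasome sum from 42.8 to 65.0. No paired analysis was possible because there was 1 group. Depth limits Psmb8, Psmb9, Psme4 and Psmg3, which had under 20 reads in each library.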

Other observations

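Reads on the exons of proteasome genes were also assigned to annotated neighbours on the other strand. Nek6, opposite Psmb7, had 99 and 104 such reads, Emc9, opposite Psme1, had 46 and 27, and Slc39a13, opposite Psmc3, had 28 and 23. The 4 annotated pseudogenes that carry proteasome symbols (Psmb5-ps, Psmb6-ps, Psmb6-ps2 and Psmb7-ps2) had 0 reads in both libraries.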
